A study of Homo sapiens with 9 samples.

Results

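The hairpins described here are 8 rows of a table of microRNA (miRNA) read counts that were listed by name and chosen by their counts, which rose strongly or appeared from almost nothing when ERH was depleted in HEK293E cells. They are hsa-mir-198, hsa-mir-3159, hsa-mir-3923, hsa-mir-3144, hsa-mir-891a and 3 genomic copies of hsa-mir-3179, numbered 1 to 3, out of 1485 hairpins. The copies of hsa-mir-3179 hold the same mature sequence, so the 8 rows stand for 6 distinct miRNA genes. Because the HEK293E contrast between ERH and control siRNAs chose the hairpins, their values in it are given as a description without a test. Where a test of another contrast is not independent of that choice, this is said beside it.

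Small RNA libraries came from HEK293E, a derivative of the human embryonic kidney line HEK293, and from K562, a human leukaemia line with erythroid features. HEK293E cells were transfected with siGFP (replicates 1 and 2) or siControl (replicates 1 and 2), the control siRNAs, or with siERH-3 (replicates 1 and 2) or siERH-5 (replicate 2 only), which target ERH. They were transfected a second time and collected on day 5. K562 cells were electroporated with siGFP or siERH-5, with 1 library each, and collected on day 4. No other genotype, drug or treatment is named for any group, and the depletion is transient. ERH protein and mRNA were not measured in these libraries, so the extent of depletion behind each value is not given here.

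A miRNA is cut from a folded primary transcript in a pair of steps. In the nucleus the Microprocessor, made of the RNase DROSHA and its RNA-binding partner DGCR8, releases the hairpin, and in the cytoplasm DICER trims it to a short duplex from which an Argonaute protein keeps a strand. ERH is a small, conserved nuclear protein that binds DGCR8 and is known for aiding the processing of hairpins that are poor Microprocessor substrates when a good substrate lies next to them on the same transcript. The seed, bases 2 to 8 of the mature strand, is the part that pairs with target messenger RNAs.

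The libraries held between 2609929 and 3320017 hairpin counts, a narrow range, and a floor of 3 counts corresponded to 0.904 to 1.15 counts per 1000000 of a library's total. Summed marker hairpins followed the labelled lines. The 4 erythroid hairpins summed to 70783 counts per 1000000 in K562 siGFP and to 1849 to 3064 in the HEK293E control libraries. The 6 hairpins of the HOX clusters summed to 28539 to 42433 in HEK293E and to 3970 to 5606 in K562. The 6 hairpins of liver, muscle and myeloid cells summed to 39.3 to 115 in HEK293E and to 12442 to 13273 in K562, where nearly all of it was the myeloid hsa-mir-223, with 32446 and 43807 counts. Levels below are CPM, counts per 1000000 after TMM scaling, which adjusts each library total for differences in composition. All changes are relative to the other hairpins, and whether a hairpin changed in every cell or in a share of the cells cannot be told apart in bulk RNA.

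The mature sequences below are shown because they set the identity of the miRNA that each row counts and show whether any share a seed. They are from RefSeq on GRCh38.p14, where all 8 hairpins matched, and they run 5′ to 3′ with the seed in capitals.
hsa-miR-198: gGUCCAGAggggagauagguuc
hsa-miR-3159: uAGGAUUAcaagugucggccac
hsa-miR-3923: aACUAGUAauguuggauuaggg
hsa-miR-3144-5p: aGGGGACCaaagagauauauag
hsa-miR-3144-3p: aUAUACCUguucggucucuuua
hsa-miR-891a-5p: uGCAACGAaccugagccacuga
hsa-miR-3179: aGAAGGGGugaaauuuaaacgu
The 7 mature miRNAs carried 7 different seeds, and no other matched mature miRNA of the table shared any of them. The hairpins therefore do not form a seed family. Each row counts a whole hairpin, so the 5p and 3p strands of hsa-mir-3144 were not separated.

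Whole hairpins are shown for 4 of the 6 distinct hairpins whose folding is described further on, with the annotated mature strands in capitals.
hsa-mir-3144: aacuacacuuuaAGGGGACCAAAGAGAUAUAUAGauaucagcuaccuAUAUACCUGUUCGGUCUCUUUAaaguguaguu
hsa-mir-3923: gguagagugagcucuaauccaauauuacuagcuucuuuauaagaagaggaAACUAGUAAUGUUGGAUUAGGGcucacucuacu
hsa-mir-3179-1: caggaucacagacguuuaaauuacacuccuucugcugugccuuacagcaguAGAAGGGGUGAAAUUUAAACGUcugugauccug
hsa-mir-891a: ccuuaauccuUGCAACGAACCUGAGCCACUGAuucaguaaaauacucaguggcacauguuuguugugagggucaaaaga
The arms of hsa-mir-3923 and hsa-mir-3179-1 are close to inverted repeats of each other, and 91.6% and 88.1% of their bases were paired in the predicted fold. The corresponding share was 78.5% in hsa-mir-3144 and 70.9% in hsa-mir-891a, against a median of 73.1% over the hairpins tested.

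The hairpins had no common host. Positions are from GENCODE 29 on GRCh38. hsa-mir-198 lies at chr3:120395668-120395729 on the minus strand, in the 3′ UTR of 1 transcript of FSTL1, the gene of a secreted follistatin-like glycoprotein. hsa-mir-3923, at chr3:79507887-79507969 on the plus strand, lies inside the span of ROBO1, an axon guidance receptor gene, but on the opposite strand and over no exon. hsa-mir-3159, at chr11:18387787-18387860 on the plus strand, is intergenic, with the lactate dehydrogenase gene LDHA the nearest protein-coding gene at 6528 bp on the same strand. hsa-mir-3144, at chr6:120015179-120015257 on the plus strand, is intergenic, 665418 bp from the mannosidase gene MAN1A1. hsa-mir-891a, at chrX:146027794-146027872 on the minus strand, is intergenic, 197938 bp from SLITRK2, and belongs to a miRNA cluster best known from the epididymis.

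The copies of hsa-mir-3179 lie in duplicated segments of chromosome 16. hsa-mir-3179-1 is at chr16:14901508-14901591 on the plus strand, in an exon of the long intergenic noncoding RNA gene AC136443.3 and 5348 bp from NOMO1. hsa-mir-3179-2 is at chr16:16300159-16300242 on the plus strand, 5345 bp from NOMO3, and hsa-mir-3179-3 is at chr16:18411894-18411977 on the minus strand, 5348 bp from NOMO2. A copy outside the list, hsa-mir-3179-4, is at chr16:18494493-18494576 on the minus strand, in an intron of NOMO2. Counts of the listed copies were identical in 8 of 9 libraries and differed by 1 count in the other, siControl replicate 1. Reads that fit every copy cannot be assigned to any of them, so the copies are given below as a single miRNA by the values of hsa-mir-3179-1.

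In HEK293E the hairpins started from different levels, and hsa-mir-198 was all but absent from the controls. It had 0 counts in both siGFP libraries, 0 and 1 in siControl replicates 1 and 2, 56 and 67 in siERH-3 replicates 1 and 2, and 23 in siERH-5. The 3 siERH libraries thus all stood above the 4 controls. In sum it had 1 count in the controls and 146 in the siERH libraries. The level was 0.095 ± 0.19 CPM (SD, n = 4) in the controls and 14.5 ± 7.18 CPM (SD, n = 3) with siERH. The ratio of the summed counts per scaled library size was 163, with an exact 95% interval of 28.8 to 6478 that covers counting error only. A single control count sets that width, and no fitted fold change is given for it.

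hsa-mir-3923 and hsa-mir-3159 were also near the floor in the controls, but the size of their rise depended on the library. hsa-mir-3923 had 2 and 0 counts in siGFP replicates 1 and 2, 1 and 2 in siControl, 7 in each siERH-3 library and 65 in siERH-5. hsa-mir-3159 had 3 counts in every control library, 11 and 15 in siERH-3 replicates 1 and 2, and 33 in siERH-5. Neither overlapped between the groups, and in both the siERH-5 library stood well above the siERH-3 libraries. hsa-mir-3923 went from 5 counts to 79 in sum, a ratio of 17.6 (exact 95% interval 7.24 to 55.8), and from 0.42 ± 0.326 CPM (SD, n = 4) to 7.55 ± 9.44 CPM (SD, n = 3). hsa-mir-3159 went from 12 counts to 59, a ratio of 5.49 (2.92 to 11.2), and from 1.08 ± 0.171 to 5.73 ± 3.22 CPM. Both lay below the filter of a mean of 10 counts without siERH-5.

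hsa-mir-3144, hsa-mir-891a and hsa-mir-3179 were already detected in every control. hsa-mir-3144 had 79 counts in each siGFP library, 77 and 69 in siControl replicates 1 and 2, 393 and 388 in siERH-3 and 542 in siERH-5. Its controls were close together, and it went from 27.3 ± 4.46 CPM (SD, n = 4) to 130 ± 21.1 CPM (SD, n = 3), a fitted log2 fold change of 2.25. hsa-mir-3179-1 had 50 and 26 counts in siGFP replicates 1 and 2, 37 and 38 in siControl, 190 and 185 in siERH-3 and 143 in siERH-5. It went from 13.2 ± 1.61 to 51.1 ± 9.09 CPM, a log2 fold change of 1.95, with siERH-5 the lowest of the siERH libraries.

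hsa-mir-891a differed from the others in its controls. It had 55 and 49 counts in siGFP replicates 1 and 2, 20 and 16 in siControl, 151 and 155 in siERH-3 and 331 in siERH-5. The groups did not overlap, but the control siRNAs lay apart from each other. The level went from 12.4 ± 7.02 CPM (SD, n = 4) to 62.0 ± 27.7 CPM (SD, n = 3), a log2 fold change of 2.33. Against siGFP alone it was 1.76 and against siControl alone 3.20.

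**Figure D1:**
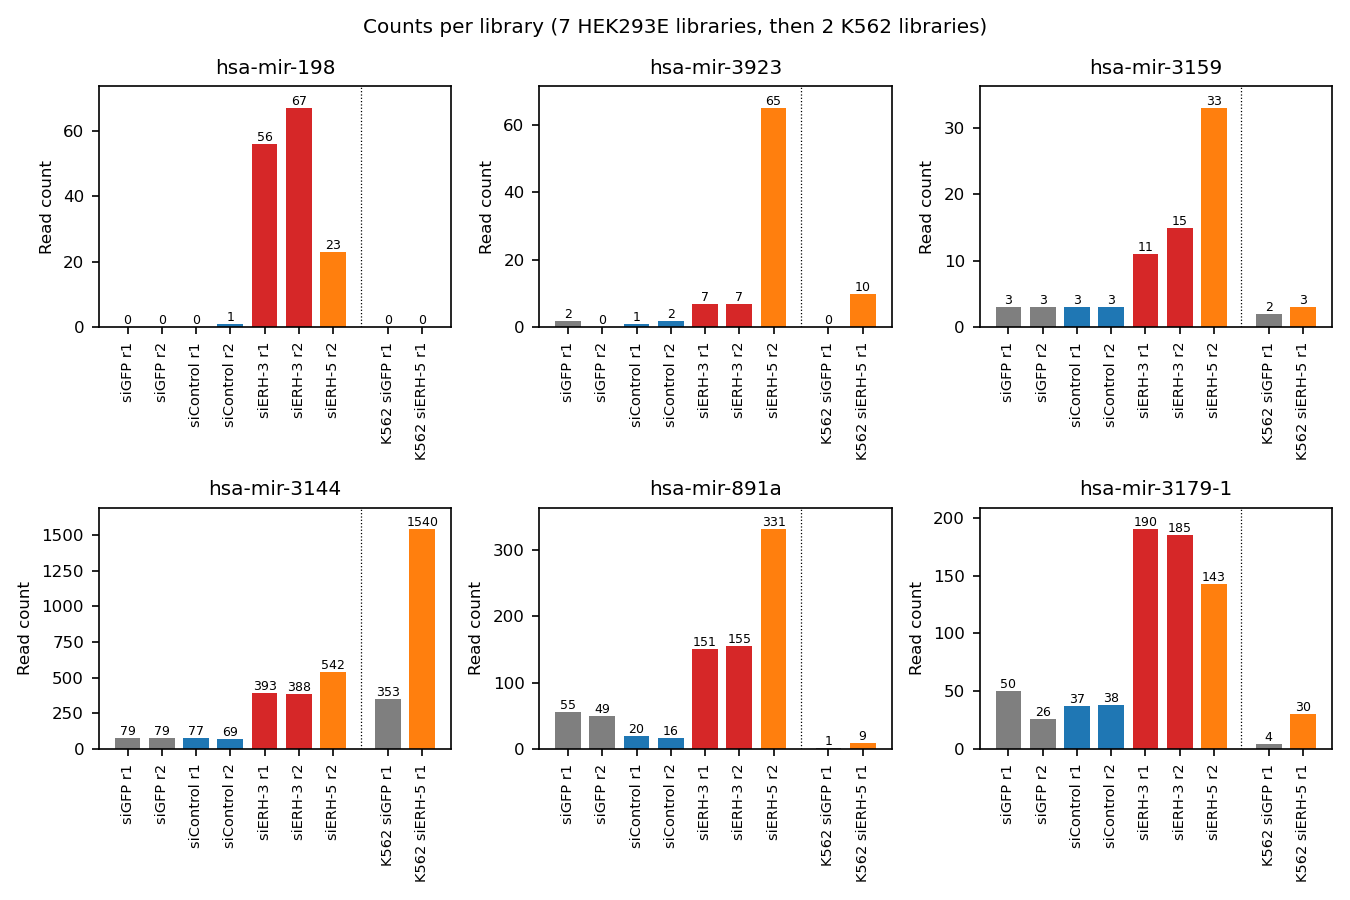
Read counts of the 6 distinct hairpins in each of the 9 libraries, 1 panel per hairpin with a linear axis from 0, HEK293E left of the dotted line and K562 right of it. In HEK293E the siERH bars stand above all control bars in each panel, from 0, 0, 0 and 1 counts to 56, 67 and 23 for hsa-mir-198.

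As background, edgeR's quasi-likelihood test called 184 of 773 tested hairpins (23.8%) higher at a Benjamini-Hochberg adjusted p under 0.05, and 125 lower (16.2%). On unscaled library totals the split was 212 higher and 67 lower, and with a block for replicate it was 217 higher and 159 lower. The siERH libraries did not overlap the controls for the 8 rows, nor for 197 of all 773 tested hairpins (25.5%). Since the rule used this contrast, nothing is read from those counts. hsa-mir-198, hsa-mir-3159 and hsa-mir-3923 passed the filter through their siERH libraries alone, with mean control counts of 0.25, 3.0 and 1.25.

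Ranked by fitted change, the 8 rows were among the 20 largest increases of the 773, with 12 other hairpins between them. hsa-mir-198 was first, followed by hsa-mir-544a, which had 0 and 1 counts in siGFP, 0 in each siControl library, 28 and 67 in siERH-3 and 28 in siERH-5. hsa-mir-485 stood just behind hsa-mir-3923, with log2 fold changes of 3.80 and 4.00, and hsa-mir-376c just ahead of hsa-mir-3159, with 2.46 and 2.40. At the lower edge hsa-mir-3179-3, at 1.94, was the last listed row, and the first hairpin past the 20 was hsa-mir-509-1, at 1.87. Of the 278 hairpins with at most 3 counts over all 4 controls, 2 had at least 10 counts in every siERH library (0.719%), namely hsa-mir-198 and hsa-mir-544a. In the opposite direction, 0 of the 255 hairpins with at most 3 counts over the siERH libraries had at least 10 in every control. The rule used these counts, so nothing is read from either number. The directions also differ in strictness, since there are 4 control and 3 siERH libraries.

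**Figure D2:**
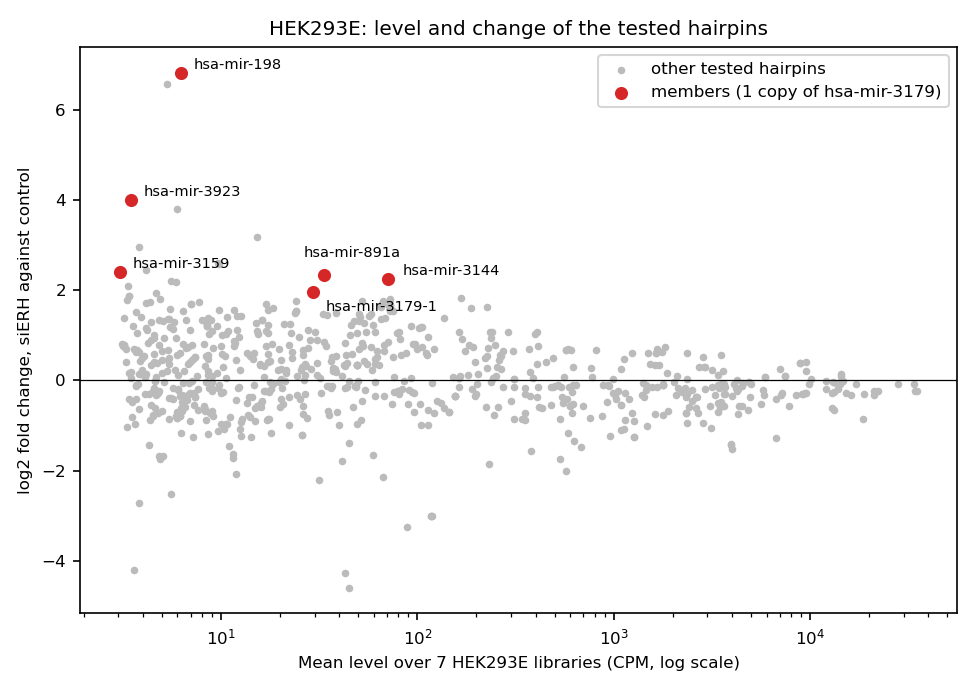
Fitted log2 fold change (siERH against control) against mean CPM over the 7 HEK293E libraries on a log axis, with the 6 distinct hairpins in red among the 773 tested. All 6 lie at a log2 fold change of 1.95 or above, and at a mean level under 100 CPM. The red point of hsa-mir-198 rests on 1 control count.

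None of the listed hairpins was abundant. By mean level over the HEK293E libraries, hsa-mir-198, hsa-mir-3159 and hsa-mir-3923 fell among the 211 tested hairpins under 10 CPM, of which 27.0% were called higher. hsa-mir-3144, hsa-mir-891a and the hsa-mir-3179 copies fell among the 265 between 10 and 100 CPM, of which 34.0% were called higher. The 297 hairpins at 100 CPM or more, of which 12.5% were called higher, held none of them.

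Agreement of the ERH siRNAs was described within replicates, each siERH library against the mean of the siGFP and siControl libraries of its own replicate, as the log2 ratio of CPM plus 1. siERH-3 replicate 1 and siERH-5 replicate 2 share no library in this comparison, whereas siERH-3 and siERH-5 of replicate 2 share their controls. Every listed hairpin was at least 2-fold up in each siERH library, against 14.9%, 15.5% and 15.3% of all tested hairpins for siERH-3 replicate 1, siERH-3 replicate 2 and siERH-5. The rule used these libraries, so the shares are background only.

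The siERH-3 replicates gave near-equal ratios, and siERH-5 set the hairpins apart from each other. hsa-mir-3144 was 2.19, 1.96 and 2.33 in siERH-3 replicate 1, siERH-3 replicate 2 and siERH-5, and hsa-mir-3179-1 was 1.97, 2.07 and 1.60. hsa-mir-3923 was 1.07, 1.18 and 3.82, hsa-mir-3159 was 1.12, 1.34 and 2.24, and hsa-mir-891a was 1.89, 1.75 and 2.73. In these 3 the siERH-5 ratio was the highest. hsa-mir-198 ran the other way, at 4.14, 4.17 and 2.66.

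**Figure D3:**
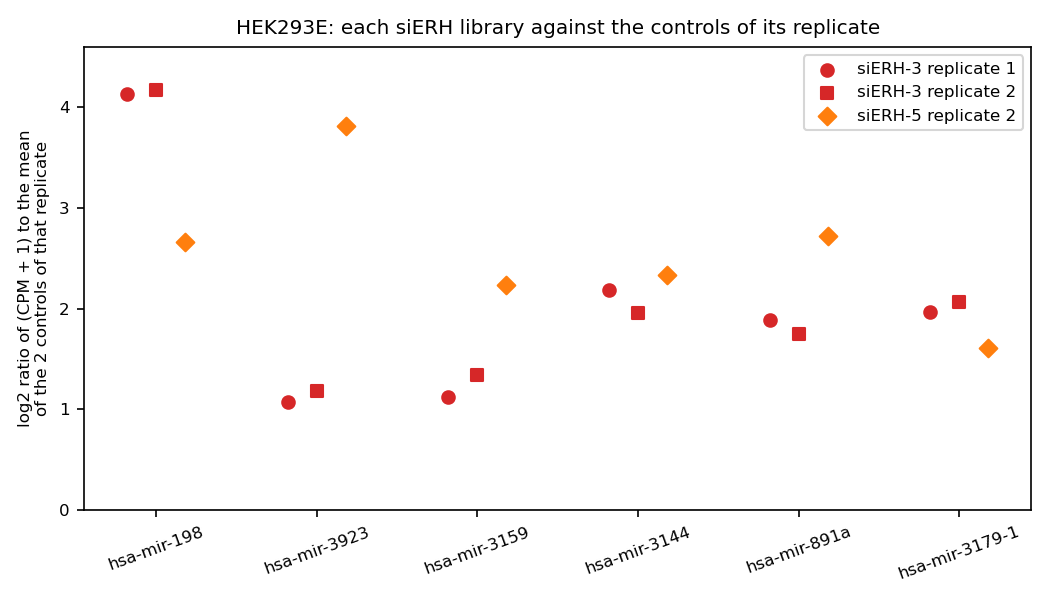
Log2 ratio of CPM plus 1 of each siERH library to the mean of the control libraries of its replicate, for the 6 distinct hairpins in HEK293E, 1 point per library. The siERH-3 points lie together, while the siERH-5 point is higher for hsa-mir-3923 (3.82 against 1.07 and 1.18) and lower for hsa-mir-198 (2.66 against 4.14 and 4.17).

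The difference between siERH-5 and siERH-3 was tested with edgeR's quasi-likelihood test in a fit of all 7 HEK293E libraries with a term per siRNA. No hairpin of 773 was called (0%), with 46 at an unadjusted p under 0.05 and 2 called by DESeq2. On simulated counts this test recovered 0.5% of 2-fold changes and 89% of 4-fold changes. The absence of calls therefore does not show that the ERH siRNAs agree. The hairpins were listed for high counts in these siERH libraries, and siERH-5 is a single library, so this test is not independent of their choice and their differences are a description.

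hsa-mir-3923 differed most, by 3.11 ± 0.49 on the log2 scale (SE), from 65 counts in siERH-5 against 7 in each siERH-3 library. It passed the filter through siERH-5 alone, so nothing is read from its adjusted p, which was 0.119, and 0.034 with a block for replicate (3.13 ± 0.51), where 3 of the 773 hairpins were called (0.388%). Over all alternatives that adjusted p ran from 0.0314 to 1.0. The difference was 1.25 ± 0.41 for hsa-mir-3159, 1.03 ± 0.28 for hsa-mir-891a and 0.39 ± 0.29 for hsa-mir-3144. It was −1.50 ± 0.48 for hsa-mir-198 and −0.47 ± 0.29 for hsa-mir-3179-1. Without siERH-5, hsa-mir-3159 lay below the filter too, and hsa-mir-198 passed it through its siERH libraries alone. With a single siERH-5 library, the differences of these 5 are a description, and no adjusted p is given for them.

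The control siRNAs were compared in the same fit. No hairpin of 773 was called by edgeR (0%), with 37 at an unadjusted p under 0.05 and 4 called by DESeq2. hsa-mir-891a was lower with siControl than with siGFP by a log2 difference of −1.46 ± 0.29 (SE), lower in both replicates, at an unadjusted p of 0.00125 and an adjusted p of 0.193. With the replicate block it was −1.44 ± 0.28 at an adjusted p of 0.0377, and hsa-mir-891a was then 1 of 12 hairpins called (1.55%). Over all alternatives its adjusted p ran from 0.0377 to 0.894. The difference for hsa-mir-3144 was −0.06 ± 0.26, and for hsa-mir-3179-1 it was 0.11 ± 0.27, with adjusted p of 0.941 and 0.921. hsa-mir-198, hsa-mir-3159 and hsa-mir-3923 had at most 3 counts in any control library, too few to show a difference between control siRNAs.

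The neighbours of hsa-mir-891a were taken from a list of the chromosome X cluster. All 6 other listed hairpins, hsa-mir-888, hsa-mir-890, hsa-mir-891b, hsa-mir-892a, hsa-mir-892b and hsa-mir-892c, lie on the same strand at 26663 to 34968 bp. Their counts were low, with control means under 10 for each of them, so those with enough counts for the fit got there through their siERH libraries and no test of the rise is given. hsa-mir-888 had 4 to 13 counts in the 4 controls and 40 to 102 in the 3 siERH libraries, and hsa-mir-891b had 4 to 11 and 31 to 109. hsa-mir-890 had 4 to 9 and 17 to 54, and hsa-mir-892a had 2 to 15 and 24 to 58. In these 4 the counts of the groups did not overlap. Nor did their CPM, as was the case for 197 of all 773 tested hairpins (25.5%). The counts did overlap in hsa-mir-892b, with 4 to 10 in the controls and 9 to 19 with siERH, and in hsa-mir-892c, with 1 to 5 and 3 to 21.

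Summed over all 6 neighbours, the siGFP libraries had 52 and 49 counts, siControl 30 and 28, siERH-3 129 and 172, and siERH-5 363. The sums fell into the same order as hsa-mir-891a itself, with siControl lowest and siERH-5 highest. Singly, the 4 neighbours in the fit had mean control counts of 6.25 to 8.5, too few to show a difference between control siRNAs. Their fitted log2 differences ran from −1.65 for hsa-mir-892a to 0.03 for hsa-mir-888, and nothing is read from them.

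**Figure D4:**
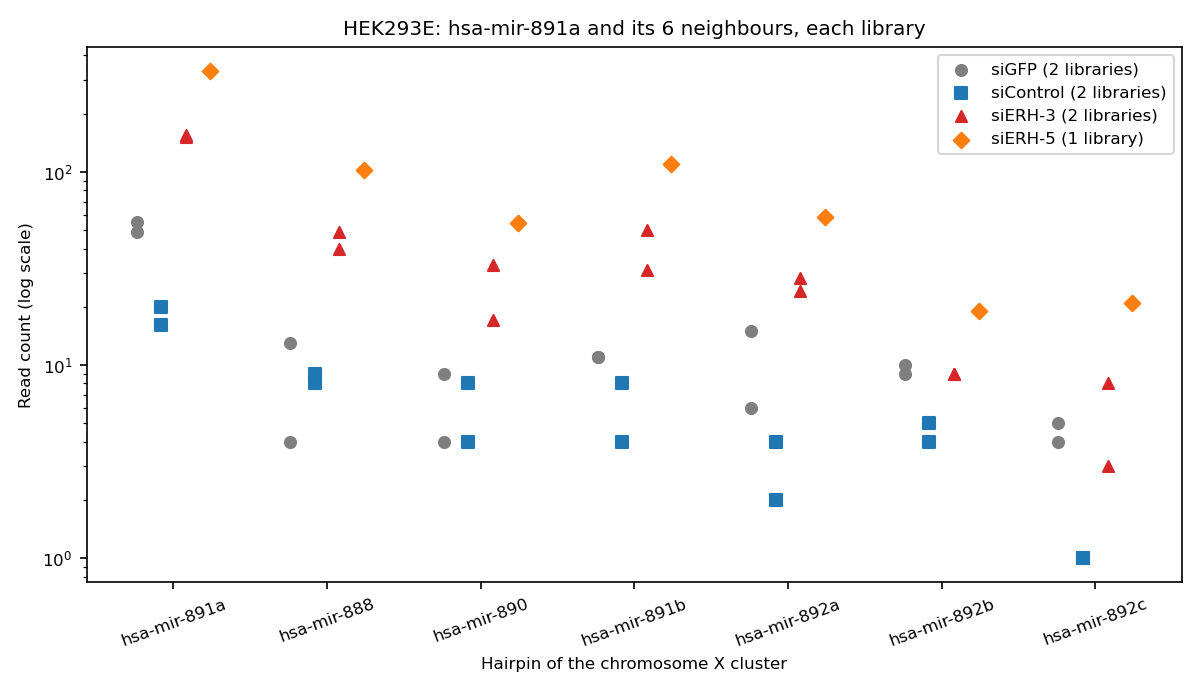
Read counts (log axis) of hsa-mir-891a and of its 6 neighbours on chromosome X in the 7 HEK293E libraries, 1 point per library, by siRNA. The siERH points lie above all controls for hsa-mir-891a, hsa-mir-888, hsa-mir-890, hsa-mir-891b and hsa-mir-892a and overlap them for hsa-mir-892b (4 to 10 against 9 to 19) and hsa-mir-892c (1 to 5 against 3 to 21).

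A list drawn up for the chromosome 16 segments held 16 tested hairpins other than the hsa-mir-3179 copies. Of these 16, 0 were called by edgeR (0 at an unadjusted p under 0.05) or by DESeq2. Their median log2 fold change was −0.11, against −0.01 over all hairpins tested. Not all 16 were found within 50 kb of a listed copy, so these values do not describe the segments alone. hsa-mir-3180-1, 9629 bp from hsa-mir-3179-1 on the duplicated segment, had 213 and 74 counts in siGFP replicates 1 and 2, 163 and 70 in siControl, 170 and 147 in siERH-3 and 259 in siERH-5. Those libraries overlapped between the groups, and the difference was 0.35 ± 0.32 on the log2 scale (SE, adjusted p 0.403 by edgeR). hsa-mir-6511a-1 was at −0.11 (adjusted p 0.718) and hsa-mir-6770-1 at −0.22 (0.646). These neighbours also have copies, so their values are not independent of each other.

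For comparison, a list was taken of hairpins described as made without DROSHA, a property that was not checked here for each of them. Of its 9 hairpins 7 were tested, and 0 were called by edgeR (1 at an unadjusted p under 0.05) or by DESeq2. Their median log2 fold change was −0.14, with hsa-mir-1229 the largest at 0.56 (adjusted p 0.0964) and hsa-mir-320a the smallest at −0.27 (0.432). None of the listed hairpins is on it.

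K562 played no part in choosing the hairpins, but each group there is 1 library, so no test is possible and each ratio carries only its counting interval. Of 646 hairpins that averaged 10 counts or more, 65 (10.1%) were at least 2-fold higher with siERH-5 than with siGFP on the scale of CPM plus 1, with a median log2 ratio of 0.11. The 4 listed rows with enough counts, hsa-mir-3144 and the 3 copies of hsa-mir-3179, were among them, the copies reaching the filter through their siERH-5 counts. hsa-mir-3144 had 353 counts in the siGFP library and 1540 in the siERH-5 library, or 149 and 421 CPM, a ratio of 2.82 (exact 95% interval 2.51 to 3.18). hsa-mir-3179-1 had 4 and 30 counts, or 1.69 and 8.19 CPM, a ratio of 4.85 (1.71 to 19.0). Both were higher with siERH-5 by more than counting error. With a pseudocount of 5 CPM the log2 ratio of hsa-mir-3179-1 was 0.98 instead of 1.77, just under 2-fold.

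The rest were near or under the floor in K562. hsa-mir-3923 had 0 counts under siGFP and 10 under siERH-5, and the exact 95% interval of its ratio starts at 1.45. Against a floor of 3 counts in the siGFP library it was 2.16-fold higher, a value that leaves out the counting error of the siERH-5 library. hsa-mir-891a had 1 and 9 counts, a ratio of 5.82 whose interval (0.807 to 255) includes no change. hsa-mir-3159 had 2 and 3 counts, a ratio of 0.971 (0.111 to 11.6). hsa-mir-198 had 0 counts in both libraries, so its gain in HEK293E has no counterpart that could be measured at this depth. The 6 chromosome X neighbours of hsa-mir-891a summed to 2 counts in the K562 siGFP library and to 14 in the K562 siERH-5 library.

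The starting levels differed between the lines. With siGFP hsa-mir-3144 was at 27.0 counts per 1000000 of the library total in HEK293E and 135 in K562. In contrast, hsa-mir-891a was at 17.8 in HEK293E and 0.383 in K562, and hsa-mir-3179-1 at 13.0 and 1.53. The values for hsa-mir-3159 were 1.02 and 0.765, both near the floor. No difference between the lines was tested, since K562 has 1 siGFP library.

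Outside the counts, the hairpins had low to middling GC content and no common fold. GC content was 35.4% in hsa-mir-3144, 37.3% in hsa-mir-3923 and 38.7% in hsa-mir-198, all in the lowest quartile of the tested hairpins (20.3% to 41.8%). hsa-mir-891a, at 43.0%, and hsa-mir-3179-1, at 44.0%, fell in the next quartile and hsa-mir-3159, at 56.8%, in the one above, with a median of 51.1% over the hairpins tested. Of all tested hairpins in the lowest quartile 49.5% were called higher, with 26.6%, 11.3% and 7.81% in the following quartiles. GC content thus moved with the call over the whole table, and its part in the rise of the listed hairpins was not tested.

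Predicted folding energy (RNAfold) differed widely among the listed hairpins. hsa-mir-3179-1 had −61.1 kcal/mol, or −0.73 per nucleotide, and 94.9% of the tested hairpins were less stable by that measure. hsa-mir-3923 had −56.1 kcal/mol and was more stable per nucleotide than 91.8% of them. hsa-mir-3159 (−0.48 per nucleotide), hsa-mir-3144 (−0.47) and hsa-mir-891a (−0.44) were near the median of −0.47. At the other end, hsa-mir-198 had −13.8 kcal/mol, or −0.22 per nucleotide, with 0.6% of the tested hairpins less stable.

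**Figure D5:**
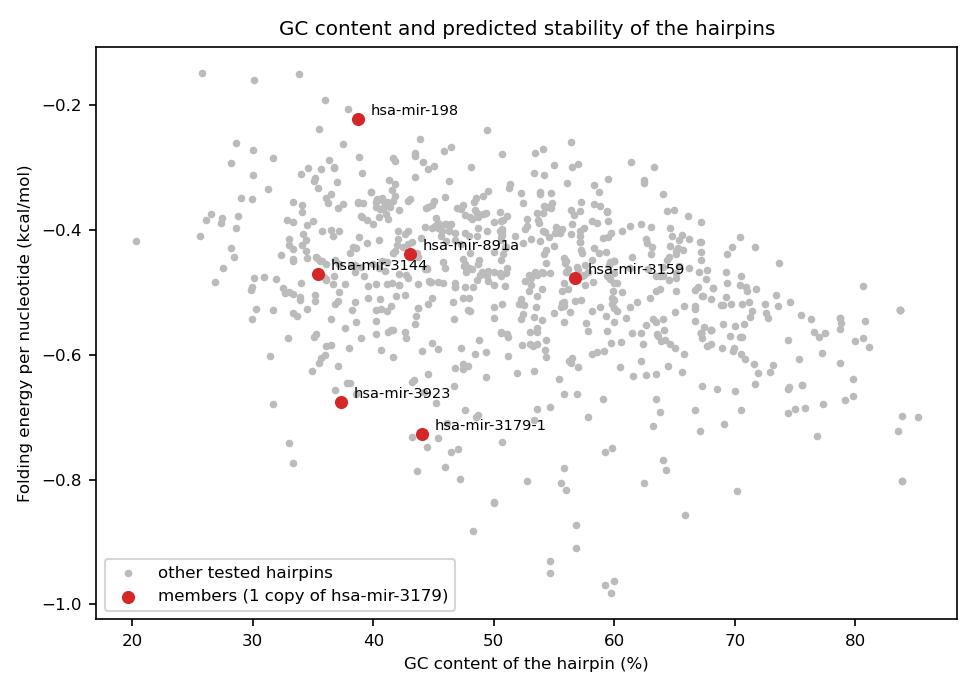
Folding energy per nucleotide (kcal/mol, lower is more stable) against GC content (%) of the tested hairpins, with the 6 distinct listed hairpins in red. hsa-mir-198 lies at −0.22 and 38.7% GC, while hsa-mir-3923 and hsa-mir-3179-1 lie at −0.68 and −0.73 with 37.3% and 44.0% GC.

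The hairpins most like each listed one were found by the Pearson correlation of log2(CPM + 1) over the 9 libraries, among 782 hairpins. The libraries share cell line, siRNA and replicate, so the coefficients are descriptions. Closest to hsa-mir-198 were hsa-mir-548l (r = 0.958) and hsa-mir-3146 (0.957), and closest to hsa-mir-3159 were hsa-mir-548ar (0.904) and hsa-mir-891b (0.897). For hsa-mir-3923 they were hsa-mir-141 (0.883) and hsa-mir-1285-2 (0.877), and for hsa-mir-3144 they were hsa-mir-3128 (0.981) and hsa-mir-4659a (0.979). hsa-mir-891a was most like hsa-mir-5089 (0.97) and hsa-mir-3181 (0.966), and hsa-mir-3179-1 was most like hsa-mir-3177 (0.975) and hsa-mir-4504 (0.957). hsa-mir-3177 had 271 and 211 counts in siGFP replicates 1 and 2, 222 and 194 in siControl, 980 and 1025 in siERH-3, 849 in siERH-5, and 34 and 121 in K562 siGFP and siERH-5. Like hsa-mir-3179-1, it was far above its controls in each siERH library and low in K562.

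The listed hairpins were all chosen for rises in the same siERH libraries, so correlations among them are not independent of that choice. Among them, hsa-mir-198 and hsa-mir-3179-1 were the most alike (r = 0.887). Next came hsa-mir-891a and hsa-mir-3179-1 (0.878), then hsa-mir-3923 and hsa-mir-3159 (0.81). hsa-mir-3144 had the lowest coefficients, with r of −0.12 to hsa-mir-891a and 0.07 to hsa-mir-3179-1, its level being highest in K562. To hsa-mir-198, hsa-mir-3159 and hsa-mir-3923 its r was 0.20, 0.41 and 0.51.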

How the data were processed

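The 8 hairpins, and the lists of neighbours, markers and hairpins described as made without DROSHA, were chosen with earlier results of these data known. Per the labels' protocols, RNA of 18 to 30 nt was gel-purified from 10 µg of total RNA with spike-in RNAs and ligated to adapters with 4 random nucleotides. Per the submitters' processing notes, cutadapt, Bowtie2 and bedtools were used with hg38, and the handling of reads that fit several hairpins is not given in the sources used here. The authors deposited raw counts for 1485 hairpins, with 2336 blank cells that were read as 0 here. The RPM values the authors deposited equalled the count plus 1 over the library total plus 1485, times 1000000, within a relative 1.1e-09, and were not used further. Collapsing of reads by molecule is not given in the sources used here, and intervals and floors reflect counting error alone.

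edgeR 4.0.16 (R 4.3.3) was run on hairpins averaging 10 counts or more in a fit, with TMM scaling, the quasi-likelihood test, Benjamini-Hochberg adjustment over all hairpins kept and an adjusted p-value under 0.05. HEK293E siERH (3 libraries) against control (4) served as background. siERH-5 against siERH-3 and siControl against siGFP were tested in a fit of all 7 HEK293E libraries, in which the single siERH-5 library is assumed to vary like the others. Nothing in the labels says that replicates were separate cultures beyond their experimental group, so p-values measure the spread between these libraries. K562 ratios used CPM plus 1. Ratios of summed counts have exact Clopper-Pearson 95% intervals.

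The labels give each replicate number its own experimental group, which pairs the libraries. Deviations from the siRNA means correlated between siRNAs at 0.692, 0.48 and 0.519, so the block is given beside the results it changes. Alternatives were DESeq2 1.42.0, library totals without TMM, no filter, pseudocounts, the replicate block and each library left out. Named hairpins were the 8 rows, the listed neighbours, the 2 hairpins most correlated with each and hairpins next to them in the ranking. The fits were tested on simulated counts with 200 hairpins changed. For 2-fold changes, 72% were recovered for siERH against control, 45.5% between control siRNAs and 0.5% between ERH siRNAs. For 4-fold changes the shares were 99%, 94% and 89%. Positions came from GENCODE 29 for 1480 of the 1485 hairpins, sequences from RefSeq and folds from RNAfold 2.7.2. Scripts used Python 3.11.15 with scipy 1.17.1, numpy 2.4.6, matplotlib 3.10.9 and pandas 2.3.3. The spike-in RNAs were not used here.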

Additional observations from a re-analysis of the deposited data

Results flagged for a closer look

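Over the control libraries of the 8 rows, 1 library stood apart from its group. For hsa-mir-198 siControl replicate 2 was at 0.38 CPM while the other 3 control libraries were at 0. That value is a single count. With the others at 0, any count sets a library apart, so the chance rate of about 1 of 20 groups does not apply. Of the 8 groups of control libraries looked at, 3 were copies of hsa-mir-3179 with near-identical counts.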

How the results depend on the processing

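The siERH against control log2 fold changes of the listed hairpins kept their direction under every alternative that could be run. Since the rule used this contrast, nothing is read from that. Ranges were 2.12 to 2.44 for hsa-mir-3144, 2.20 to 2.70 for hsa-mir-3159 and 3.60 to 4.61 for hsa-mir-3923. They were 1.76 to 3.20 for hsa-mir-891a and 1.86 to 2.13 for hsa-mir-3179-1. No range is given for hsa-mir-198, whose value rests on 1 control count and moved with the choice of controls. On library totals the median of all hairpins moved by 0.20 in that contrast and by 0.26 in K562. Against 125 in the main fit, 67 hairpins were lower on library totals and 76 to 130 with each library left out, the lowest without siERH-3 replicate 2 and 77 without siERH-3 replicate 1. Between control siRNAs, 4 hairpins were called by DESeq2, 4 without a filter, 12 with the replicate block and 0 to 1 with each library left out. Between ERH siRNAs the numbers were 2, 2, 3 with the block and 0. In K562, 109 hairpins were at least 2-fold higher on library totals, 29 with a pseudocount of 5 CPM and 117 without a filter, against 65.

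Differences between control siRNAs near 0 changed sign without passing a threshold, and the cause was not tested. On library totals they were −0.0515 for hsa-mir-3159, −0.0459 for hsa-mir-3179-1 and hsa-mir-3179-2 and −0.0267 for hsa-mir-3179-3, while the K562 log2 ratio of hsa-mir-3159 was 0.11. With each library left out they ran from −0.20 to 0.34 for hsa-mir-3159, from −0.0576 to 3.83 for hsa-mir-3923, from −0.32 to 0.24 for hsa-mir-3144, from −0.0611 to 0.32 for hsa-mir-3179-1 and hsa-mir-3179-2 and from −0.0424 to 0.34 for hsa-mir-3179-3. Between control siRNAs, the replicate block moved hsa-mir-891a under the threshold and no other listed hairpin. The log2 difference of hsa-mir-3923 between ERH siRNAs ran from 3.07 to 3.17 over all alternatives. As it passed the filter through siERH-5 alone, nothing is read from its adjusted p. Without siERH-5 the counts of hsa-mir-3159 and hsa-mir-3923 were too low to test. At this depth, differences between control siRNAs in hsa-mir-198, hsa-mir-3159 and hsa-mir-3923, and any K562 change of hsa-mir-198, were not detectable.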
